A study of Homo sapiens with 6 samples.

Results

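DNA of SW620 cells cultured after a xenograft passage was set against DNA of the xenograft itself, over all 9566 satellite loci of the deposited table. Both groups are SW620, an established human line of metastatic colorectal cancer. The culture after the xenograft was grown in 2D in RPMI1640 with serum, and the xenograft grew under the skin of a Nu/Nu mouse, an immunodeficient host that lacks T cells. These are 2 of the 6 libraries of the series, which hold RNA and DNA of 3 stages with 1 library each. The number of mice, tumours or cultures is not given in the labels, and a piece of xenograft also holds host cells. The table holds no genes, so neither the cell line nor the share of host cells could be checked against markers. The members were chosen by their column labels, with no measured value used.

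Satellites are tandem repeats. Alpha satellite (ALR/Alpha) forms the arrays on which human centromeres are built. HSATII and the simple pentamer repeats (CATTC)n and (GAATG)n lie mostly in the heterochromatin beside centromeres, beta satellite (BSR/Beta) and ACRO1 are best known from the acrocentric short arms and nearby regions, and GSATII is a gamma satellite of pericentromeric regions. Since these arrays are long and nearly uniform, the DNA level of a family tracks how many copies a genome holds, and a read can match many loci.

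Levels are in RPM (per 1000000 reads of a library). The library of the culture after the xenograft held 3080853 reads in all and that of the xenograft 3231173, so a single read was worth 0.325 RPM in the culture after and 0.309 RPM in the xenograft. A locus without a read could hold up to 0.974 RPM in the culture after and 0.928 RPM in the xenograft, taking 3 reads as the limit. Reads assigned to a locus are its hits. Ratios are culture after over xenograft, with 95% exact conditional binomial intervals on hits. The intervals cover counting error only, and they are too narrow where a read is counted at several loci. With 1 library on each side there is no spread between cultures or animals to compare with, and no p-value is given for the conditions. Scaling by TMM instead of by library totals would multiply every ratio by 1.04, and scaling by size factors by 0.953. The size factors came out at 1 for both libraries, so that setting compares hits with no correction for library totals.

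The satellite content of the libraries was nearly equal, and its make-up shifted a little towards alpha satellite. Satellite hits came to 10.4% of reads in the culture after (319998 hits, Wilson score interval 10.35 to 10.42%) and 9.88% in the xenograft (319346 hits, 9.85 to 9.92%). Their ratio was 1.05 (1.046 to 1.06). Alpha satellite took 69.8% of the satellite hits in the culture after and 67.3% in the xenograft. HSATII took 12.7% in the culture after and 13.2% in the xenograft. The remaining families together with HSATII, that is all satellites but alpha, had a ratio of 0.972 (0.964 to 0.981). Hits on loci annotated on the plus strand had a ratio of 1.05 (1.047 to 1.06), and those on the minus strand 1.05 (1.04 to 1.06).

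Loci with hits were largely those hit in both libraries. Of the 9566 loci, 5493 had hits in both libraries, 768 in the culture after alone, 944 in the xenograft alone and 2361 in neither. No locus hit in the culture after alone had more than 9 hits, and none hit in the xenograft alone had more than 12. For single loci, log2(RPM + 5) was used, and only the 473 with at least 20 RPM in either library were kept. Over these, Pearson's r was 0.982 and Spearman's rho 0.940, given as descriptions, since loci of a library share its depth and some share reads. The median log2 ratio was 0.08 and its SD 0.29, and 375 loci (79.3%) differed by less than 0.32 on the log2 scale. Among the 67 loci with a mean of 200 RPM or more, all differed by less than that, with an SD of 0.11.

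**Figure D1:**
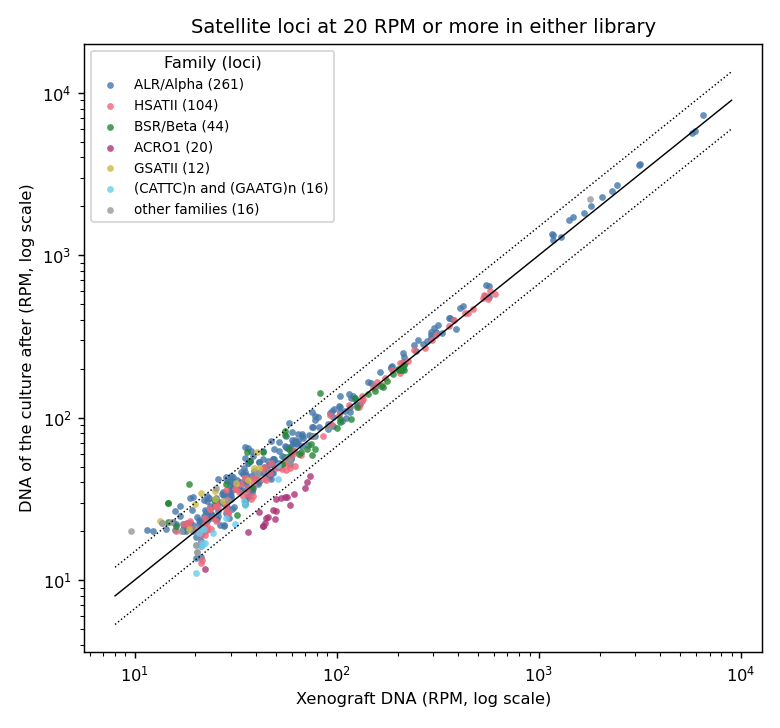
DNA level of 473 satellite loci in the culture after (vertical axis) against the xenograft (horizontal axis), both in RPM on log scales. The solid line marks equal levels and the dotted lines a 1.5-fold difference with no pseudocount; the 20 ACRO1 loci lie below the line of equal levels and alpha satellite loci mostly above it.

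A 1.5-fold difference on the log2(RPM + 5) scale was reached by 18 loci that were higher (3.81% of 473) and 20 that were lower (4.23%) in the culture after. This split was 25 and 18 when libraries were scaled by TMM and 8 and 23 when scaled by size factors. At a log2 difference of 0.32, 69 loci were higher (14.6%) and 29 lower (6.13%), and at 2-fold there were 0 in either direction. The size rule is a fixed fold, not a test. Of the 473 loci, 40 reached 20 RPM in the culture after alone and 25 in the xenograft alone. The minimum sets the direction of such loci. A count test on the recovered reads was run over the 7205 loci with a hit. It was exact conditional binomial, with p adjusted by Benjamini and Hochberg's method and calls at an adjusted p under 0.05. It called 39 loci higher (0.541%) and 20 lower (0.278%). It compares these libraries only, not the conditions.

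ACRO1 accounted for nearly all of the lower loci. It made up 19 of the 20 loci at least 1.5-fold lower, which is 95% of its 20 measured loci against 4.23% of all loci. In total ACRO1 was at 707 RPM in the culture after and 1183 RPM in the xenograft, from 2177 hits in the culture after and 3823 in the xenograft. The ratio was 0.597 (0.566 to 0.630). Its 20 loci at 20 RPM ran from 11.7 RPM through a median of 26.8 to 43.5 RPM in the culture after, against 22.3 RPM through a median of 49.7 to 74.0 RPM in the xenograft. Their log2 ratios ran from −0.93 to −0.57. Of the 20, 18 reached 20 RPM in both libraries and 2 in the xenograft alone. Over all 58 ACRO1 loci with a hit, 16 were higher and 42 lower in the culture after. The lowest was the locus at chromosome 4, 49318350 to 49319799 (hg19, plus strand, 1450 bases), with 23.7 RPM in the culture after and 49.5 RPM in the xenograft, a ratio of 0.479 (0.358 to 0.635). The ACRO1 locus with the most hits, on the contig Un_gl000224 at 4597 to 6152, had 43.5 RPM in the culture after and 74.0 RPM in the xenograft, a ratio of 0.588 (0.472 to 0.730).

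The lower ACRO1 level appeared at places far apart in the assembly, which may not be separate observations, and went with locus length. Chromosome 4 gave a ratio of 0.565 (0.519 to 0.615), chromosome 1 gave 0.604 (0.467 to 0.777) and chromosome 21 gave 0.687 (0.556 to 0.847). The contigs Un_gl000214, Un_gl000224 and Un_gl000243 gave 0.615 (0.545 to 0.693), 0.583 (0.516 to 0.657) and 0.638 (0.503 to 0.806). These places may share reads: the chromosome 4 loci at 49281431 to 49282736 and 49331561 to 49332866 had equal values in all 6 libraries, with 66 hits in the culture after and 140 in the xenograft. Over the 20 ACRO1 loci at 20 RPM, the SD of log2 ratios without a pseudocount was 0.115. That is below the 0.199 expected from counting error, so the 20 loci cannot be taken as counted separately. Whether shared reads account for this was not tested. The 24 ACRO1 loci of 1000 bases or more stood at 599 RPM in the culture after and 1071 RPM in the xenograft, a ratio of 0.559 (0.528 to 0.591). The 33 loci under 300 bases had 331 hits in the culture after and 357 in the xenograft, a ratio of 0.972 (0.835 to 1.13) whose interval held 1.

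The pentamer repeats were lower in sum by a smaller amount. Both families together were at 6448 RPM in the culture after and 7552 RPM in the xenograft, a ratio of 0.854 (0.838 to 0.870). Over all loci with a hit, 402 (CATTC)n loci were higher and 585 lower in the culture after, and 566 (GAATG)n loci were higher and 758 lower, beside 3645 higher and 3560 lower in all families. Loci at 20 RPM were few, 12 and 4, and 5 of the (CATTC)n and 3 of the (GAATG)n loci reached it in the xenograft alone, so the direction of those 8 was set by the minimum. Their log2 ratios ran from −0.65 to −0.0027. One of these loci, a (GAATG)n locus of chromosome 4 that passed through the xenograft alone, was past 1.5-fold, with 11.0 RPM in the culture after and 20.1 RPM in the xenograft. Over the 12 (CATTC)n loci the SD of log2 ratios without a pseudocount was 0.145, below the 0.232 expected from counting error. They too cannot be taken as counted separately. The count test called few pentamer loci, all of them below the minimum. It called 1 of 1324 (GAATG)n loci higher and 2 of 987 (CATTC)n loci lower. These shares are under the 0.541% higher and 0.278% lower of all loci tested. The (GAATG)n locus, at chromosome 1, 224202153 to 224202875, had 29 hits in the culture after and 7 in the xenograft. The (CATTC)n loci, at chromosome 4, 49095688 to 49096043 and 49097297 to 49097652, each had 17 hits in the culture after and 47 in the xenograft. For (CATTC)n, chromosomes 10, 4 and Y gave ratios of 0.841 (0.803 to 0.880), 0.827 (0.783 to 0.874) and 0.809 (0.740 to 0.885). Chromosomes 16 and 2 and the contig Un_gl000216 gave 0.743 (0.598 to 0.921), 0.909 (0.831 to 0.995) and 0.915 (0.858 to 0.975). For (GAATG)n, chromosomes 10, 21 and 4 gave 0.878 (0.829 to 0.929), 0.869 (0.815 to 0.926) and 0.803 (0.746 to 0.865), and chromosomes 2 and Y gave 0.819 (0.708 to 0.946) and 0.857 (0.820 to 0.897). Its interval held 1 on chromosomes 1 (0.939), 17 (0.785) and 20 (0.920) and on Un_gl000225 (0.835). No length trend was visible in either family. The (CATTC)n ratio was 0.871, 0.840 and 0.862 for loci under 300 bases, from 300 and from 1000 bases, and the (GAATG)n ratio 0.829, 0.867 and 0.867, with overlapping intervals.

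**Figure D2:**
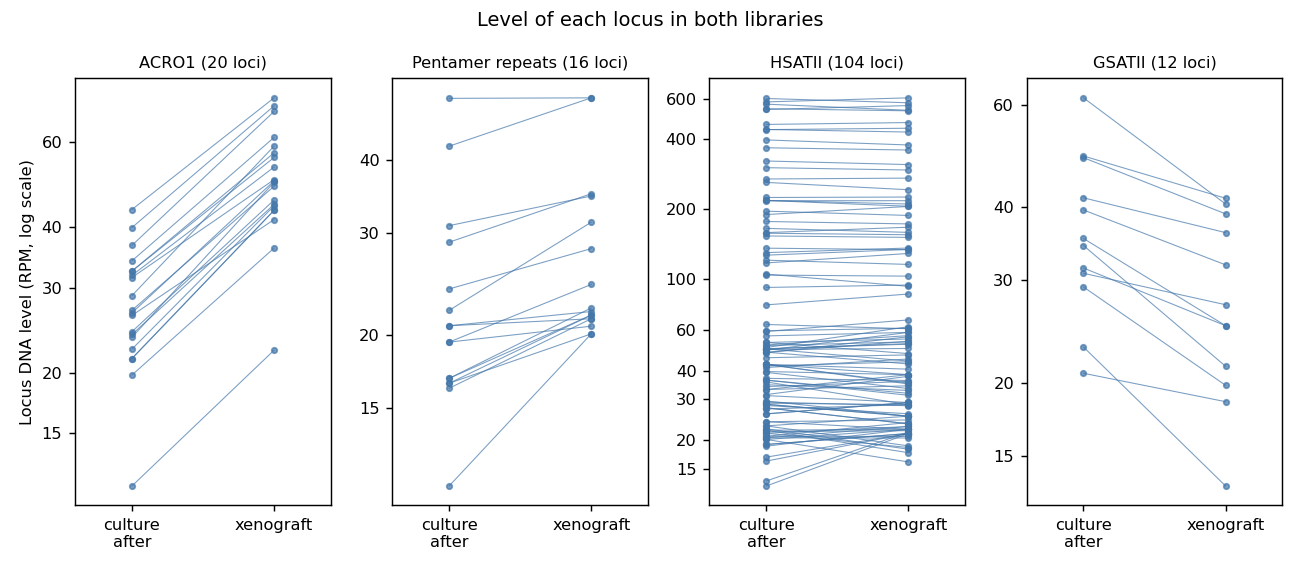
DNA level (RPM, log scale) of each locus at 20 RPM or more, in the culture after (left of each panel) and the xenograft (right), joined by a line. ACRO1 and pentamer lines run up to the xenograft, those of most of the 104 HSATII loci are nearly level, and GSATII lines run down to the xenograft. For the 8 pentamer, 2 ACRO1 and 3 GSATII loci at 20 RPM in 1 library alone, the minimum sets the slope. The same holds for the HSATII loci at 20 RPM in 1 library, 5 in the culture after and 7 in the xenograft.

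HSATII loci matched to about the limit of counting. In total it was at 13143 RPM in the culture after and 13066 RPM in the xenograft, a ratio of 1.006 (0.992 to 1.02). This ratio was 1.05 (1.04 to 1.07) under TMM and 0.959 (0.946 to 0.972) under size factors, so its place at 1 depends on the scaling. Of its 104 loci at 20 RPM, 52 were higher and 52 lower, 102 differed by less than 0.32 on the log2 scale, and 0 passed 1.5-fold. Of the 104, 92 reached 20 RPM in both libraries, and 47 of these were higher and 45 lower. A further 5 reached it in the culture after alone and 7 in the xenograft alone. Pearson's r over the 104 loci was 0.994. Without a pseudocount the SD of the log2 ratios was 0.182, against 0.180 expected from counting error alone, and the counting interval of 102 of the 104 ratios held 1. The count test called 0 of 376 HSATII loci in either direction, beside 0.541% higher and 0.278% lower of all loci tested, shares at which few calls would fall among 376. The locus with the most hits, at chromosome 10, 42598547 to 42601361 (minus strand, 2815 bases), had 581 RPM in the culture after and 605 RPM in the xenograft, a ratio of 0.960 (0.900 to 1.02). By chromosome it was 0.998 (0.976 to 1.02) on 10, 1.005 (0.986 to 1.02) on 16, 1.02 (0.978 to 1.07) on 2, 1.04 (0.976 to 1.11) on 7, 0.959 (0.850 to 1.08) on 22, 0.976 (0.827 to 1.15) on 3 and 1.23 (0.970 to 1.57) on 1. The length classes lay between 0.984 (at least 300 and under 1000 bases) and 1.04 (under 300 bases), and each interval held 1. The exceptions past 0.32 were a pair of loci on chromosome 2, at 90377263 to 90378475 and 91598751 to 91599963. They had 12.7 and 13.3 RPM in the culture after against 21.4 and 21.7 RPM in the xenograft. Both reached 20 RPM in the xenograft alone, so the minimum set their direction.

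Alpha satellite was higher in the culture after, by a small amount seen across nearly all chromosomes. It was at 72474 RPM in the culture after and 66549 RPM in the xenograft, a ratio of 1.09 (1.08 to 1.10), and of its 1216 loci with a hit 745 were higher and 471 lower. The alpha ratio was 1.14 (1.13 to 1.14) under TMM and 1.04 (1.03 to 1.04) under size factors. Of the 234 alpha loci at 20 RPM in both libraries, 183 were higher and 51 lower. Of the 261, 11 (4.21%) were at least 1.5-fold higher, close to the 3.81% of all loci, and 0 were lower by that amount. Unlike HSATII, alpha loci scattered beyond counting error: the SD of their log2 ratios without a pseudocount was 0.237, against 0.174 expected. The count test called 28 of 1216 alpha loci higher and 0 lower, beside 0.541% and 0.278% of all loci. These 28 are most of the 39 higher calls, so the share of all loci is largely alpha itself. The test also reaches smaller ratios at deeper loci, and alpha holds the deepest. A called locus of chromosome 7 had 7636 hits in the culture after and 7446 in the xenograft. The excess was not told apart from depth.

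Among the largest alpha arrays, those of chromosome X stood apart. On chromosome X the array at 61682015 to 61736573 reached 5834 RPM in the culture after and 5916 RPM in the xenograft, a ratio of 0.986 (0.966 to 1.006). The other one, at 58544096 to 58582011, reached 5675 RPM in the culture after and 5744 RPM in the xenograft, a ratio of 0.988 (0.968 to 1.01). These were the 2 arrays below 1 among the 10 loci with the highest mean RPM. The other 8 were higher. The unplaced contig Un_gl000226 had 7250 RPM in the culture after and 6527 RPM in the xenograft, a ratio of 1.11 (1.09 to 1.13). On chromosome 8 the arrays at 43816164 to 43838878 and 46838891 to 46863921 had 3661 and 3609 RPM in the culture after against 3177 and 3121 RPM in the xenograft, ratios of 1.15 (1.12 to 1.18) and 1.16 (1.13 to 1.19). Arrays of chromosomes 1, 7 and 19 had 2697, 2479 and 2268 RPM in the culture after against 2445, 2304 and 2046 RPM in the xenograft.

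Alpha satellite of chromosome X as a whole had a ratio of 1.002 (0.989 to 1.02), which is 0.903 times the ratio of alpha on all other sequences (Wald interval 0.889 to 0.916). Alpha outside chromosome X was at 1.11 (1.10 to 1.12). The rest of the X alpha loci, without the 2 large arrays, were at 1.12 (1.08 to 1.16), so the lower ratio of X came with those arrays. The ratio on chromosome 8 was 1.16 (1.14 to 1.18), 1.07 times that of alpha elsewhere (1.05 to 1.09). On chromosome 17 it was 1.17 (1.13 to 1.22), on the contig 9_gl000199_random 1.18 (1.14 to 1.22) and on chromosome Y 1.23 (1.15 to 1.32). Chromosomes 2, 3, 4, 5, 7, 9, 12, 14, 16, 18, 19 and 20 lay between 1.09 and 1.14, chromosomes 1, 10 and 11 between 1.04 and 1.07, and all 15 of these intervals excluded 1 with library totals. Under size factors several of them, among these chromosomes 1, 10 and 11, would hold 1. The intervals of chromosomes 6 (1.02), 15 (0.975) and 21 (1.03) held 1. A comparison of chromosomes with each other within alpha does not depend on how the libraries are scaled, while the place of each against 1 does. The karyotype of either sample was not measured here.

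**Figure D3:**
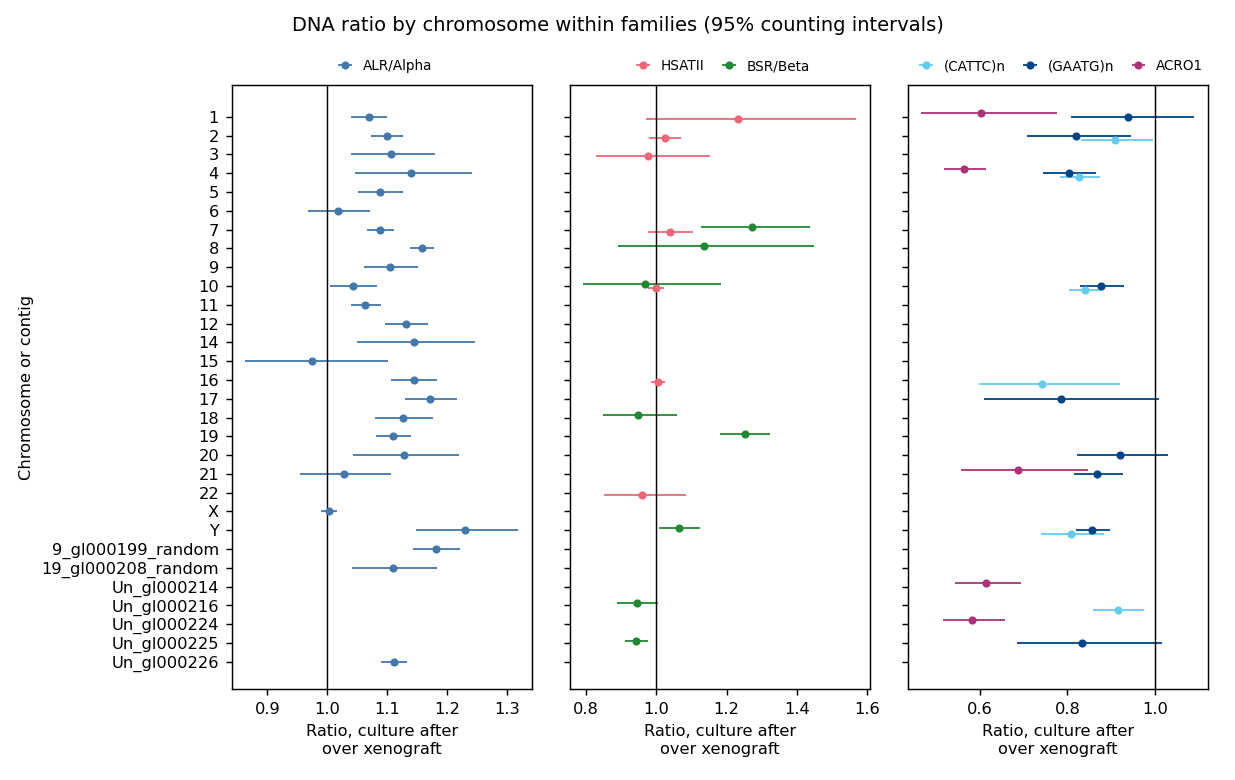
Ratio of DNA, culture after over xenograft, by chromosome or contig within 6 families; points are ratios of summed hits, bars are 95% counting intervals, and only classes with at least 200 hits are drawn, without the contigs Un_gl000228 and Un_gl000243. Alpha satellite lies above 1 on most chromosomes and at 1.002 on X, HSATII lies about 1, beta satellite is highest on chromosomes 7 and 19, and the pentamers and ACRO1 lie below 1 throughout.

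The SAR locus, the single copy of its family in the table (chromosome 8, 43092746 to 43097520, 4775 bases), was also higher. It had 2211 RPM in the culture after and 1786 RPM in the xenograft, a ratio of 1.24 (1.195 to 1.28), above both large alpha arrays of chromosome 8. SATR1 of chromosome 8, by contrast, was at 0.837 with an interval of 0.633 to 1.11.

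Beta satellite had a family ratio close to 1 that covered opposite shifts. In total it was at 5077 RPM in the culture after and 4962 RPM in the xenograft, a ratio of 1.02 (1.001 to 1.05). This ratio was 0.975 when scaled by size factors. Of its 39 loci at 20 RPM in both libraries, 11 were higher and 28 lower. A further 5 loci reached the minimum in the culture after alone. Among these 44, 5 (11.4%) were at least 1.5-fold higher, beside 3.81% of all loci. Of the 5, 3 lay on chromosome Y and were under 20 RPM in the xenograft. The minimum sets the direction of those 3, so this share is not a result about beta satellite. Its ratio was 1.251 (1.18 to 1.32) on chromosome 19, where beta satellite lies among zinc finger gene clusters, and 1.27 (1.13 to 1.44) on chromosome 7. It was 0.943 (0.910 to 0.977) on Un_gl000225, 0.946 (0.889 to 1.006) on Un_gl000216 and 0.948 (0.849 to 1.06) on chromosome 18. The SD of its locus log2 ratios was 0.393 without a pseudocount, against 0.153 expected from counting. The locus at chromosome 19, 24369409 to 24372838, had 143 RPM in the culture after and 82.6 RPM in the xenograft, a ratio of 1.73 (1.48 to 2.02). The highest log2 ratio of all 473 loci, 0.90, was that of the beta locus at chromosome Y, 25106043 to 25106723, with 39.0 RPM in the culture after and 18.6 RPM in the xenograft. A pair of Y loci with equal values, at 26739787 to 26740466 and 27221920 to 27222599, came next with 29.9 RPM in the culture after and 14.5 RPM in the xenograft. The beta locus with the most hits, on Un_gl000225 at 115786 to 126192, was at 210.0 RPM in the culture after and 215 RPM in the xenograft.

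Summed over all places, these shifts went with locus length in beta satellite, but not within every place. The 1596 loci under 1000 bases were together at 581 RPM in the culture after and 422 RPM in the xenograft, a ratio of 1.38 (1.28 to 1.48). The 388 loci of 1000 bases or more were at 4496 RPM in the culture after and 4540 RPM in the xenograft, a ratio of 0.990 (0.968 to 1.01). By class the ratio was 1.45 (1.203 to 1.75) under 300 bases, 1.36 (1.26 to 1.47) from 300, 1.05 (1.002 to 1.11) from 1000, 0.979 (0.950 to 1.01) from 3000 and 0.956 (0.903 to 1.01) from 10000 bases. Within chromosome Y the class from 300 bases was at 1.48 (1.32 to 1.67) and that from 3000 bases at 0.933 (0.858 to 1.01). On unplaced contigs these classes were at 1.24 (1.01 to 1.52) and 0.937 (0.904 to 0.971). Within chromosome 19 there was no such order, with 1.41 (1.22 to 1.64) from 300 bases, 1.12 (1.04 to 1.21) from 1000 and 1.53 (1.36 to 1.73) from 3000. The remaining sequences were flat over the same classes, at 1.09 (0.885 to 1.34), 1.09 (0.974 to 1.22) and 1.06 (0.966 to 1.16). The summed order by length was not told apart from the place of the loci.

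GSATII was higher in sum, with its most abundant loci. It was at 730 RPM in the culture after and 565 RPM in the xenograft, a ratio of 1.29 (1.21 to 1.37). The 12 loci at 20 RPM ran from 20.8 through a median of 34.9 to 61.7 RPM in the culture after, against 13.3 through a median of 26.2 to 41.5 RPM in the xenograft. Of these, 3 reached 20 RPM in the culture after alone, and the 9 at 20 RPM in both libraries were all higher in the culture after. Over all 134 GSATII loci with a hit, 78 were higher and 56 lower. The 147 loci of chromosome 12 had 172 hits in the culture after and 180 in the xenograft, a ratio of 1.002 (0.808 to 1.24), which is 0.757 times that of GSATII elsewhere (Wald interval 0.608 to 0.942), and those of chromosome 4 were at 1.03 (0.781 to 1.36). Among the 12, 1 (8.33%, beside 3.81% of all loci) passed 1.5-fold, the locus at chromosome Y, 13257291 to 13258829, with 23.05 RPM in the culture after and 13.3 RPM in the xenograft. It reached 20 RPM in the culture after alone, so its direction was set by the minimum. The locus with the most hits, at chromosome 14, 19828185 to 19830737, had 61.7 RPM in the culture after and 40.5 RPM in the xenograft, a ratio of 1.52 (1.21 to 1.92). GSATX, another gamma satellite family, was at 1.11 (0.845 to 1.45), an interval that held both 1 and the GSATII ratio, and GSAT was at 0.999 (0.860 to 1.16), an interval wholly below that of GSATII.

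SST1, a macrosatellite, had a family ratio of 0.987 (0.928 to 1.05) made of unlike parts. Its 19 loci on chromosome 4 had 78 hits in the culture after and 176 in the xenograft, a ratio of 0.465 (0.351 to 0.610). The 22 loci of the contig 4_gl000193_random went the other way, with 405 hits in the culture after and 357 in the xenograft, a ratio of 1.19 (1.03 to 1.38). On chromosome Y the ratio was 1.59 (1.31 to 1.94), on chromosome 19 it was 0.890 (0.802 to 0.986), and on chromosomes 9 (0.925) and 20 (1.07) the interval held 1. On chromosome 4 the locus at 132662482 to 132664074 had 1.62 RPM in the culture after and 4.33 RPM in the xenograft, from 5 hits in the culture after and 14 in the xenograft. The Y value rests on few loci. Those at 24265691 to 24266206 and 24612504 to 24613019 had 69 hits each in the culture after and 44 each in the xenograft. Those at 6294586 to 6294967 and 9575413 to 9575794 had 48 each in the culture after and 27 each in the xenograft. Loci of a pair may share reads, so the interval of the Y value may be too narrow.

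**Figure D4:**
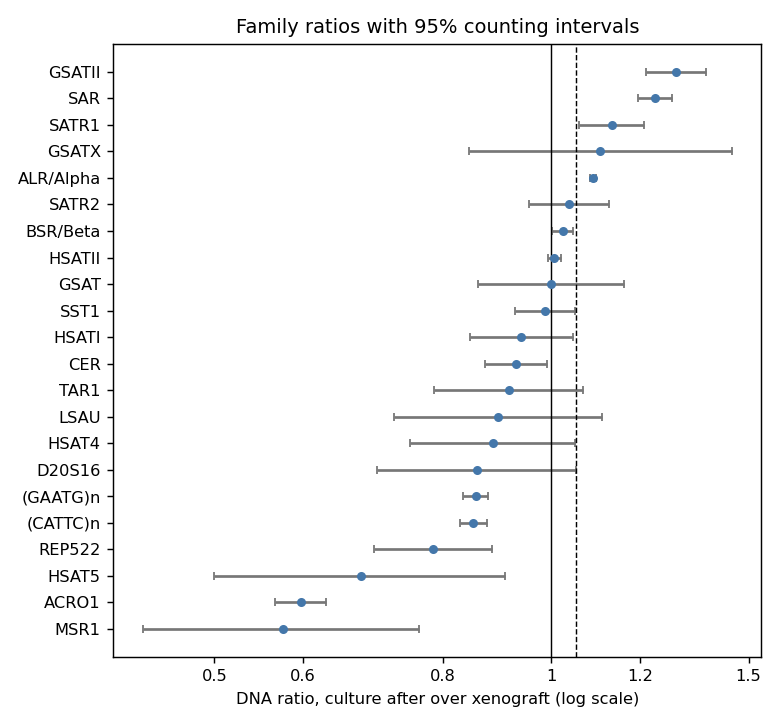
Ratio of DNA, culture after over xenograft, on a log scale for the 22 families with at least 100 hits in the 2 libraries; bars are 95% counting intervals, the solid line marks 1 and the dashed line the ratio of all satellites, 1.05. GSATII and SAR are highest, ACRO1 and MSR1 lowest, and HSATII sits at 1.006.

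Against the satellites as a whole, the remaining families lay mostly below. SATR1, at 595 RPM in the culture after and 525 RPM in the xenograft, was higher with a ratio of 1.13 (1.06 to 1.21), and SATR2 was at 1.04 (0.955 to 1.13). CER was at 0.930 (0.873 to 0.991), but its interval held 1 under TMM (0.972) and with loci of identical values counted once (0.942). Its longest locus, at chromosome 14, 19215371 to 19320499, had 87.3 RPM in the culture after and 90.7 RPM in the xenograft. REP522 was lower at 0.785 (0.695 to 0.886) and MSR1 at 0.575 (0.432 to 0.762). HSAT5 was at 0.675 (0.4995 to 0.909), and at 0.953 (0.562 to 1.61) with loci of identical values counted once. MSR1 rests on 79 hits in the culture after and 144 in the xenograft, and a pair of chromosome 1 loci with 0 hits in the culture after had 12 and 6 in the xenograft. For TAR1, HSATI, HSAT4, LSAU, D20S16, HSAT6 and SUBTEL_sa the interval held 1. HSAT6 and SUBTEL_sa had 18 and 5 hits in the culture after against 28 and 3 in the xenograft, too few to rank.

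By chromosome over all families, 16 of the 31 sequences with at least 1000 hits had intervals above 1 and 7 below. Chromosome 8 was highest of the assembled chromosomes at 1.17 (1.15 to 1.19), followed by 17 at 1.16 (1.11 to 1.1996), 14 at 1.14 (1.07 to 1.22) and 12 at 1.12 (1.09 to 1.16). Chromosome 4 was lowest at 0.818 (0.791 to 0.846), and chromosomes 10 (0.971) and 21 (0.938) also had intervals below 1. Under TMM these became 1.01 and 0.980, with intervals that held 1. The low value of chromosome 4 lay in a few families. Without ACRO1 it was 0.880 (0.848 to 0.913), and without ACRO1 and both pentamers it was 1.05 (0.982 to 1.13), while its alpha satellite stood at 1.14 (1.05 to 1.24). The unplaced contigs Un_gl000224 (0.665), Un_gl000214 (0.701), Un_gl000216 (0.931) and Un_gl000225 (0.943) were also low, although under TMM Un_gl000216 (0.973) and Un_gl000225 (0.985) had intervals that held 1. Most of their hits fell on ACRO1, (CATTC)n or beta satellite. Chromosomes X (1.003) and Y (0.985) had intervals that held 1, but under TMM both lay above 1 (1.05 and 1.03) and under size factors both below (0.956 and 0.939). On Y this covered alpha at 1.23, SST1 at 1.59 and (GAATG)n at 0.857.

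Classes were bounded at 300, 1000, 3000 and 10000 bases, and over all families they showed lower ratios for short loci. The ratio was 0.903 (0.877 to 0.929) under 300 bases, 0.939 (0.924 to 0.954) from 300, 0.983 (0.969 to 0.997) from 1000, 1.096 (1.08 to 1.11) from 3000 and 1.08 (1.07 to 1.09) from 10000 bases. The shortest class stood at 0.837 times the longest (Wald interval 0.813 to 0.862). Family make-up moved with length: alpha satellite loci had a median length of 3073 bases, while (CATTC)n and (GAATG)n had medians of 230 and 189.5 bases. Within alpha satellite the shortest class stood at 0.976 times the longest (0.794 to 1.199), with an interval that held 1, and without alpha satellite it stood at 0.932 times (0.883 to 0.983).

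**Figure D5:**
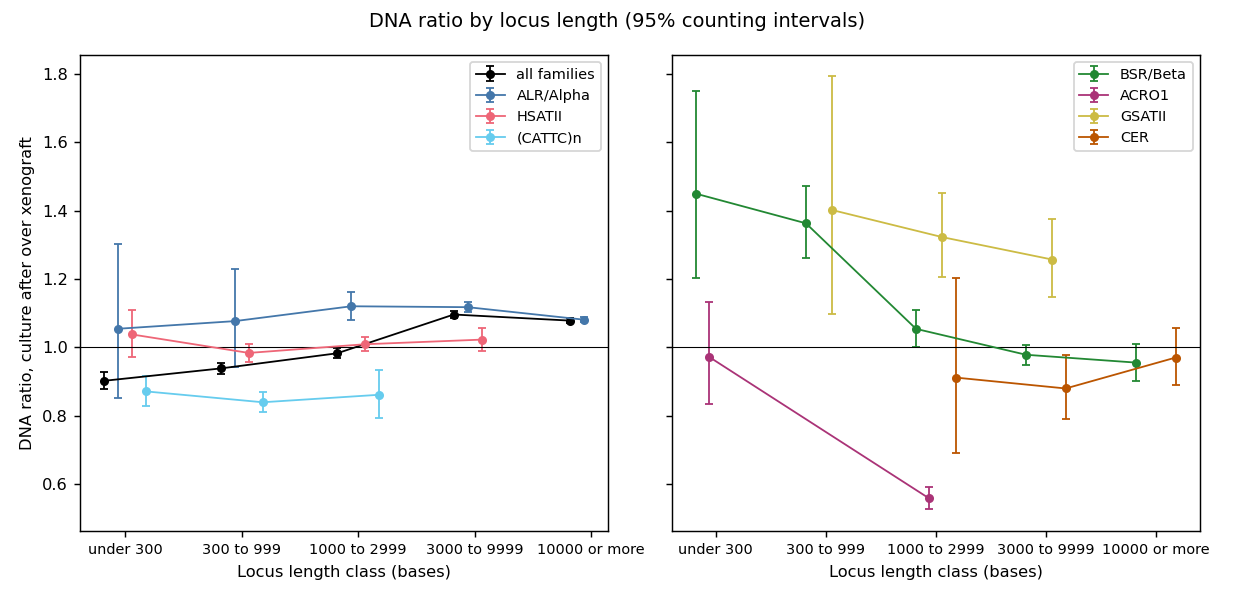
Ratio of DNA, culture after over xenograft, by length class of the locus in bases, for all families and 7 single families; bars are 95% counting intervals and classes with under 100 hits are not drawn. The all-family ratio is 0.903 in the shortest class and 1.08 in the longest, HSATII and (CATTC)n are flat, and beta satellite falls from 1.45 to 0.956.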

How the data were processed

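Per the labels' protocols, DNA came from a DNeasy extraction and was read by Helicos single-molecule sequencing. The authors deposited 1 table in RPM, with 1 row per RepeatMasker satellite locus and coordinates in hg19, per the submitters' processing notes. Not given in the sources used here are the aligner and how multiply matching or mouse reads were treated. Family, chromosome, strand and length were read from the row names. Whole reads were recovered: 100% of nonzero values in each library were whole multiples of its smallest value within 0.01 reads, which fixed the library totals.

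Loci at 20 RPM in either library were compared on log2(RPM + 5). Named are every family, the chromosomes with 1000 hits, the length classes, and the 10 highest, 10 lowest and 10 deepest loci; these are given by range and by example. The SST1, SATR1 and chromosome 4 breakdowns, the 1000-base splits, and the X split were chosen after their values were seen. Members, lists and rules were chosen with earlier results of these data known. "Expected from counting" is the root mean square over loci of the SD that the hits give. Alternatives were TMM (edgeR 4.0.16) and size factors (DESeq2 1.42.0) over satellite loci of both libraries, other pseudocounts and minimums, loci of identical values counted once, the largest locus left out, and a count test. The size rule was tested on simulated data. Software was Python 3.11.15 with SciPy 1.17.1, NumPy 2.4.6, matplotlib 3.10.9 and pandas 2.3.3, and R 4.3.3. Gene annotation and sequence of hg19 were not used here.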

Additional observations from a re-analysis of the deposited data

How the results depend on the processing

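Scaling moved every ratio by a factor of 1.04 (TMM) or 0.953 (size factors), so ratios within about that of 1 have no firm direction. The size factors were 1 in both libraries, so values under them are plain ratios of hits. The satellite ratio was 1.06 with totals that leave out satellite hits and 0.972 without alpha satellite. Pearson's r was 0.986 at a minimum of 50 RPM and 0.964 without alpha satellite. Spearman's rho was 0.907 at 10 RPM, 0.845 with no minimum and 0.912 without alpha satellite. The SD of log2 ratios was 0.328 and 0.257 with pseudocounts of 1 and 10 RPM, 0.257 at a minimum of 50 RPM, 0.211 with no minimum and 0.340 without alpha satellite. Loci 1.5-fold higher numbered 10 with a pseudocount of 10 RPM, 32, 7 and 50 at minimums of 10 RPM, 50 RPM and none, and 8 under size factors. Loci lower numbered 34, 9 and 58 at those minimums. At a log2 difference of 0.32, 69 were higher, at 2-fold 0 in both directions, and the count test called 39 higher.

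The shortest length class stood at 0.932 times the longest without alpha satellite and 0.976 within it. Sequences with intervals above 1 numbered 10 under size factors and 5 without alpha satellite, and those below 1 numbered 3 under TMM. Beta satellite turned to 0.975 under size factors, chromosome 16 to 0.989, and under TMM chromosome 10 turned to 1.01 and the class from 1000 and under 3000 bases to 1.03. Without alpha satellite, chromosomes 1 (0.913), 11 (0.918), 12 (0.977), 17 (0.824), 18 (0.924), 2 (0.983), 20 (0.967), 3 (0.883) and 9 (0.992), the contig 9_gl000199_random (0.856) and the class of 10000 bases or more (0.966) had ratios below 1. Among these only the intervals of chromosomes 1 (0.834 to 0.998) and 3 (0.786 to 0.991) excluded 1. Without their deepest locus, chromosomes 1 (0.931) and 18 (0.948) were below 1 too, with an interval that held 1 for chromosome 18. With alpha satellite alone, the 3 shorter classes turned to 1.05, 1.08 and 1.12, and only the interval of the last excluded 1. The cause of these moves was not tested. No paired analysis was possible because each group holds 1 library, and no library could be left out.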

Other observations

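The loci that differed most between these libraries also differed from each other in the DNA of the culture before xenografting, a library outside the comparison. The classes used here were chosen after the values were seen, and no explanation was tested. The 18 loci at least 1.5-fold higher in the culture after than in the xenograft had a median of 35.7 RPM in the culture after and 19.2 RPM in the xenograft. Their median in the culture before was 13.4 RPM, with a range of 0.459 to 40.2 RPM. Since this xenograft median of 19.2 RPM lies under the 20 RPM minimum, a large part of the 18 passed it through the culture after alone. The minimum sets the direction of such loci. The 20 loci at least 1.5-fold lower, 19 of them ACRO1, had medians of 26.8 RPM in the culture after and 49.7 RPM in the xenograft, and 0.689 RPM in the culture before. In the culture before, 0.689 RPM is 3 reads, so its class under 1 RPM lies near that limit. Satellites in that library came to 8539 RPM, against 98833 RPM in the xenograft. Of the 127 loci with 10 RPM or more in the culture before, 12 (9.45%) were 1.5-fold higher and 0 lower, beside 3.81% and 4.23% of all 473. Of the 95 under 1 RPM there, 1 was higher and 19 lower. Of the 194 from 1 to 5 RPM, 1 was higher and 1 lower, and of the 57 from 5 to 10 RPM, 4 were higher and 0 lower. These classes were not counted over loci at 20 RPM in both libraries alone. The counts of higher loci by class, here and within alpha satellite, are therefore not a result about the level in the culture before. Without ACRO1, 1 of 76 loci under 1 RPM was lower and 0 in the other classes, so the lower side was ACRO1 but for 1 locus. Within alpha satellite, the median log2 ratio of the loci was 0.12, 0.13, 0.17 and 0.20 in the classes under 1, 1 to 5, 5 to 10 and 10 RPM or more of the culture before, with 1, 0, 4 and 6 loci 1.5-fold higher. Ratios of summed hits, in which the largest arrays weigh most, were 1.101, 1.092, 1.087 and 1.091.

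The count test called a TAR1 locus that lies below the 20 RPM minimum. This copy of the subtelomeric repeat, at chromosome 6, 169015039 to 169016452, had 7.79 RPM in the culture after and 1.55 RPM in the xenograft (24 hits in the culture after and 5 in the xenograft), a ratio of 5.03 (1.88 to 16.9), while TAR1 as a family was at 0.917 (0.786 to 1.07). The opposite was seen at an MSR1 locus of chromosome 1, 3610939 to 3611175, with 0 hits in the culture after and 12 in the xenograft.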
